A study of Rattus norvegicus with 12 samples.

Results

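Wild-type rat hepatic progenitor cells (HPCs) exposed to the cytokine tumour necrosis factor alpha (TNFα) for 1 hour, with 2 libraries labelled WT+TNFα, were compared with untreated cells, with 2 libraries labelled WT. These are 4 of the 12 RNA-seq libraries of a study whose title concerns TNFR2, hnRNPK and YAP in liver cancer. All 12 are labelled HPCs and day 13.5 of gestation, and the other 8 are 2 libraries each of Tnfrsf1α-/- cells with TNFα, Tnfrsf1β-/- cells with TNFα, untreated Tnfrsf1α-/- cells and untreated Tnfrsf1β-/- cells. The sources used here give neither the rat strain beyond "Wild Type" nor the TNFα dose, and do not say whether libraries came from separate cultures or animals, so p-values measure only the spread between libraries, which may be technical. Of 22384 deposited lines with a gene symbol, 11860 averaged an FPKM of 1 or more across the 12 libraries and were tested. FPKM is the number of fragments per kilobase of transcript and per fixed number of fragments in the library. A level below is log2(FPKM + 1), and a log2 difference is the mean level in WT+TNFα minus the mean level in WT, with n = 2 libraries each. The read depth of the libraries is unknown.

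TNFα is a cytokine that binds the receptors TNFR1 and TNFR2. Receptor-bound adaptors such as TRADD, FADD and the TRAF proteins lead on one side to the kinases that free the transcription factor NF-kB and on the other to caspases. NF-kB is known to induce chemokines, adhesion molecules and its own inhibitors within the first hours, while MAP kinases induce immediate early genes such as those of the Fos, Jun and Egr families. Hepatic progenitor cells are known for keratins 7, 8, 18 and 19, Epcam and Sox9, and can mature into hepatocytes or bile duct cells.

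The markers of the labelled cell type were in part missing from the untreated cells. Krt18, Krt19, Epcam, Cd24, Afp, Alb and Hnf4a were listed at 0 in both WT libraries, and each was present in both WT+TNFα libraries. Krt19, the bile duct keratin, was at 4.78 and 4.84 in WT+TNFα and listed at 0 in both WT libraries. Epcam, a progenitor surface adhesion molecule, was at 3.32 and 3.05 in WT+TNFα and listed at 0 in both WT libraries. Afp, the fetal counterpart of albumin, was at 5.78 and 5.37 in WT+TNFα and listed at 0 in both WT libraries. A listed 0 can be a failed estimate. Both Krt7, another bile duct keratin, and Sox9, a progenitor transcription factor, were seen in all 4 libraries. Krt7 was at 15.24 and 15.67 in WT+TNFα and 13.8 and 13.5 in WT. Sox9 was at 9.15 and 9.19 in WT+TNFα and 5.21 and 5.78 in WT.

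The 2 WT+TNFα libraries stood apart from the other 10. They alone held transcripts of Y-linked genes at more than a trace. Uba1y, the Y-linked ubiquitin-activating enzyme, was at 6.24 and 6.14 in WT+TNFα and listed at 0 in the other 10 libraries, and Eif2s3y, a translation initiation factor subunit, was at 3.32 and 2.98 and listed at 0 in the other 10. Kdm5d, a histone demethylase, was at 1.40 and 1.18 in WT+TNFα and at most 0.01 elsewhere. The other 6 of 10 Y-linked lines, apart from Usp9y at 0.66 and 0.76, were listed at 0 in both WT+TNFα libraries. TNFα and this second difference between the libraries cannot be told apart in any result that follows. Genes over 2 log2 units higher in both WT+TNFα libraries than in all other 10 held 24.8% and 26.9% of total FPKM in WT+TNFα, 0.60% and 0.55% in WT and 0.44% to 1.996% in the other 8. These genes were picked by these same levels, so the direction of the shares was fixed. No like set was taken for another pair of libraries. Total FPKM was 1958828 and 2085921 in WT+TNFα and 1071530 and 1231675 in WT. Spearman's rho over all tested genes, a description since genes are not replicates, was 0.638 to 0.646 between WT+TNFα and WT libraries.

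**Figure D1:**
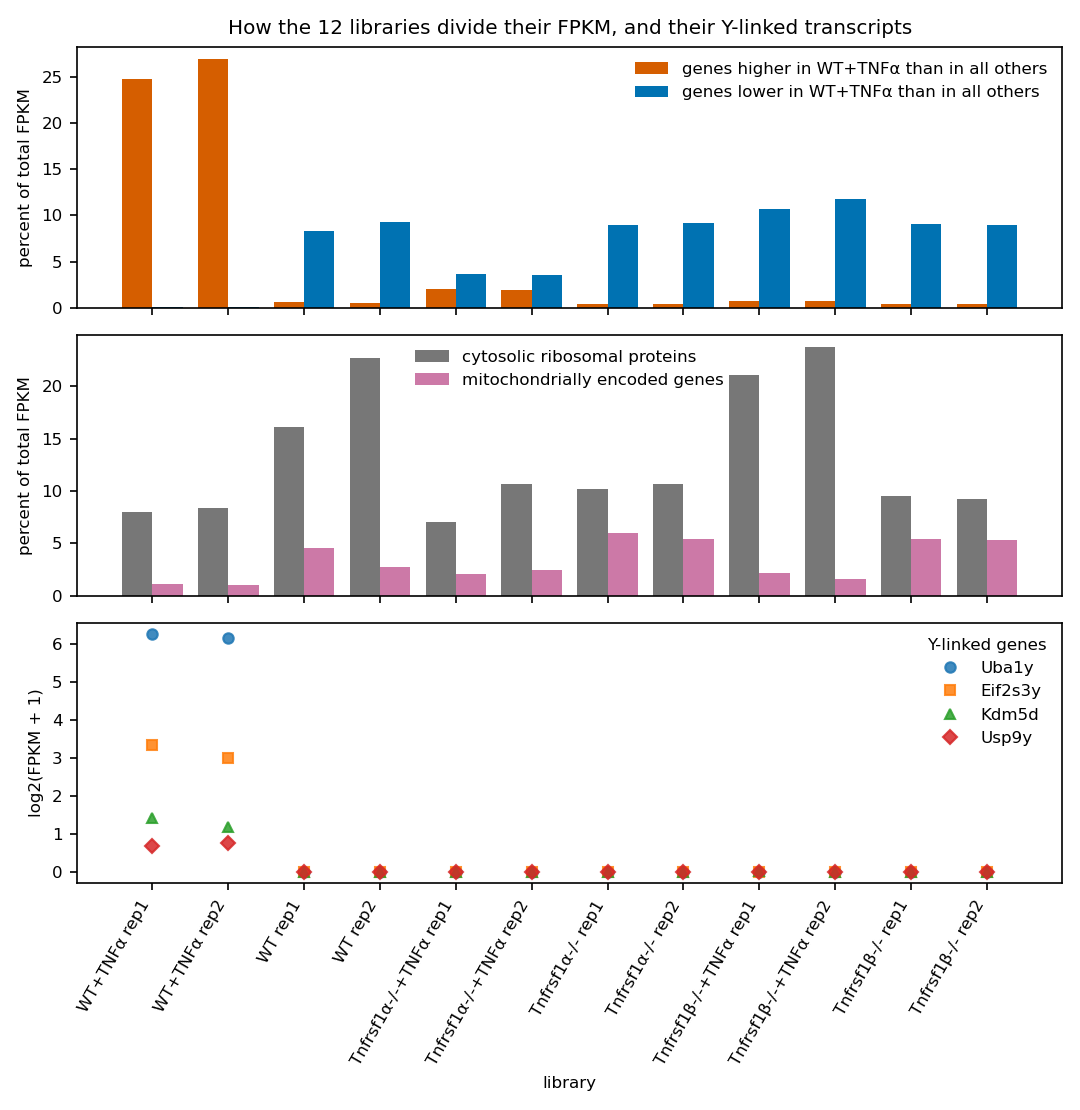
Bars in the upper panel give the percent of each library's total FPKM held by genes over 2 log2 units higher, or over 2 log2 units lower, in both WT+TNFα libraries than in all other 10; bars in the middle panel give the percent held by cytosolic ribosomal protein genes and by mitochondrially encoded genes; points in the lower panel give the level, log2(FPKM + 1), of 4 Y-linked genes. The WT+TNFα libraries hold 24.8% and 26.9% in the first set of genes against 1.996% at most elsewhere, and they alone show Uba1y and Eif2s3y. The direction of the bars in the upper panel was fixed by how its genes were picked.

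Of the 11860 tested genes 5601 (47.2%) passed limma with an adjusted p below 0.05, of which 3786 (31.9%) were higher and 1815 (15.3%) lower in WT+TNFα than in WT. In size, 392 genes were higher and 142 lower by over 5 log2 units. Without regard to calls, 5880 tested genes were higher and 3598 lower in both WT+TNFα libraries than in both WT libraries. Lack of overlap therefore does not separate a gene from the rest. The median log2 difference of all tested genes was 0.32, and it was -0.04 with median-ratio scaling and -0.12 with quantile normalization, so a difference of this size does not separate a gene from the rest. Of the calls 67.6% were higher, against 49.2% under median-ratio scaling and 43.2% under quantile normalization. A gene whose mean FPKM reaches 1 in 1 group only differs in mean by that definition. It may have passed the filter through that group or through the knockout libraries. Of 1093 such genes in WT+TNFα only, 878 were called higher, and of 1118 in WT only, 753 were called lower. Among the 8997 genes with a mean FPKM of 1 or more in both groups 2902 (32.3%) were higher and 1032 (11.5%) lower, with a median of 0.41. The count of calls was 3520 and 3618 without WT+TNFα replicate 1 or 2, and 7642 and 7646 without replicate 1 or 2 of Tnfrsf1α-/-+TNFα, which lie far from each other. It was 3875 without the 4 untreated knockout libraries.

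**Figure D2:**
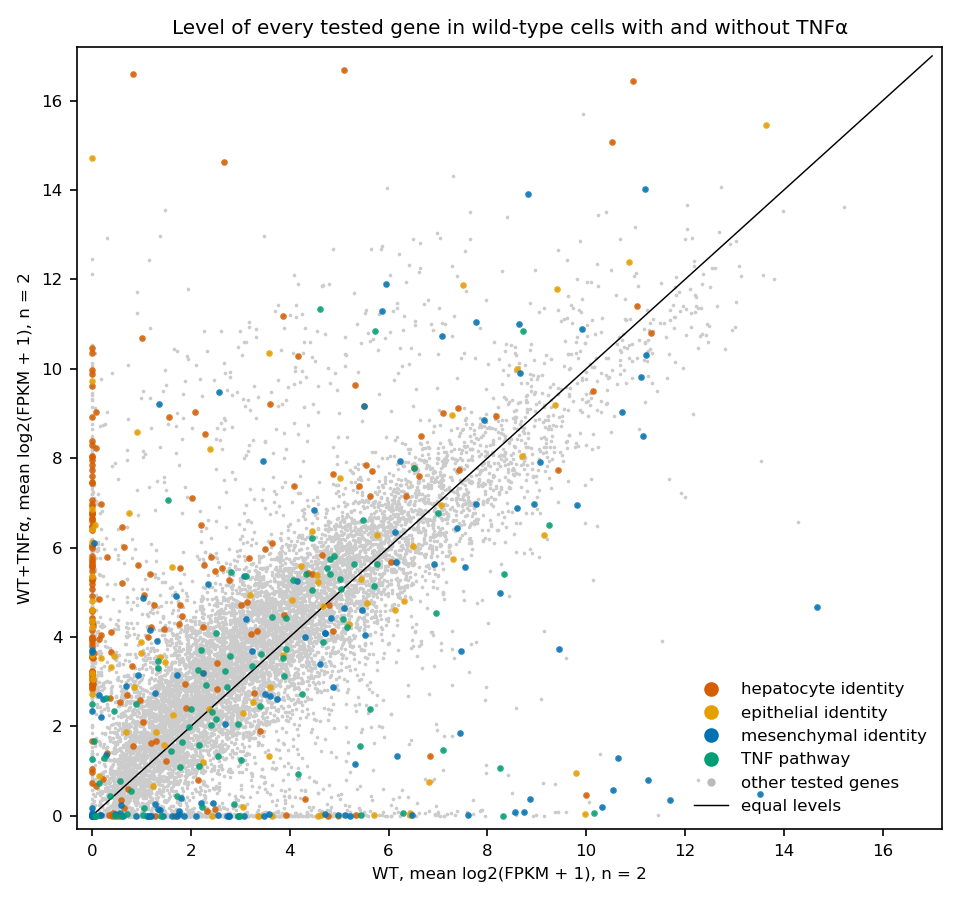
Each point is 1 of the 11860 tested genes, with its mean level, log2(FPKM + 1), in the 2 WT+TNFα libraries on the vertical axis and in the 2 WT libraries on the horizontal axis; colours mark genes of the hepatocyte, epithelial, mesenchymal and TNF pathway lists and the line marks equal levels. Hepatocyte list genes line up along the vertical axis, where WT is at or near 0, and mesenchymal list genes such as Tmsb4x and Vim lie far below the line.

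Genes of the TNF pathway moved in both directions. The lists of receptors and adaptors, NF-kB genes, chemokines and immediate early genes hold 108 lines of the table, of which 70 reached an FPKM of 1 in both WT+TNFα libraries and 73 in both WT libraries. Of the 63 with a mean FPKM of 1 or more in both groups 18 (28.6%) were higher and 13 (20.6%) lower, beside 32.3% and 11.5% of all such genes. The promoters of 3 members are shown because they hold the NF-kB motif, GGG and TTCC with 3 bases of any kind between them, and the genes went opposite ways. The sequences are from RefSeq, build GRCr8, they end at or before the base preceding the annotated start, and capitals mark the motif as it reads on the gene's strand. Nfkb2 is at chr1:255108264-255108373, plus strand, Cxcl1 at chr14:17479346-17479455, minus strand and Cxcl10 at chr14:15988829-15988938, plus strand.
Nfkb2: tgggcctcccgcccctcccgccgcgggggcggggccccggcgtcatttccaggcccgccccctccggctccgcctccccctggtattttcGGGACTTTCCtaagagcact
Cxcl1: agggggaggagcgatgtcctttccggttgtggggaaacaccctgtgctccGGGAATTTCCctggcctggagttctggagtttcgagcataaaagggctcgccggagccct
Cxcl10: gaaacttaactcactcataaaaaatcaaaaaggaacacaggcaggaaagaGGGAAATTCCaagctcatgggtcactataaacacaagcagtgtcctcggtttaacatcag
The motif starts at -20 from the start of Nfkb2, at -84 of Cxcl1, where the other strand matches 1 base further on, and at -187 of Cxcl10. Further matches, not in capitals, start at -102 of Cxcl1 on the opposite strand, within the printed stretch, and at -128 of Cxcl10 on the gene's strand and -127 on the other, outside it. Searched on both strands from 250 bases before to 50 after the start, it was in 1796 of 33469 windows (5.37%), in 8 of 26 windows of the NF-kB list and in 10 of 22 of the chemokine list. A match is a string of letters and not a site shown to be bound.

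Receptors and adaptors were mostly present in both groups. Tnfrsf1a, for TNFR1, was at 5.65 and 5.63 in WT+TNFα and 5.45 and 5.15 in WT, and the difference did not pass (log2 difference 0.34, SE 0.19, limma adjusted p = 0.168). Tnfrsf1b, for TNFR2, was at 2.58 and 2.43 in WT+TNFα and listed at 0 in both WT libraries (limma adjusted p = 0.0684). Fadd, the adaptor that recruits caspase-8, was at 4.07 and 4.09 in WT+TNFα and 2.7 and 2.3 in WT (log2 difference 1.58, SE 0.22, limma adjusted p = 0.000517). Traf5, an adaptor of TNF receptor family members, was at 1.24 and 1.27 in WT+TNFα and 3.2 and 2.81 in WT (log2 difference -1.75, SE 0.28, limma adjusted p = 0.00124). Fadd was thus higher and Traf5 lower in both treated libraries, with no overlap, which held for most tested genes. Rnf31, a subunit of the complex that adds linear ubiquitin chains, was at 3.2 and 3.32 in WT+TNFα and 2.42 and 1.87 in WT (log2 difference 1.12, SE 0.24, limma adjusted p = 0.00502). Traf2, which binds the ligases cIAP1 and cIAP2, was at 5.43 and 5.67 in WT+TNFα and 4.79 and 4.72 in WT (log2 difference 0.80, SE 0.19, limma adjusted p = 0.00811). The calls of Rnf31 (quantile normalization, 0.52, limma adjusted p = 0.0779) and Traf2 (0.32, 0.309 under median-ratio scaling, and 0.22, 0.336 under quantile normalization) were lost under scaling, and that of Traf2 also without WT+TNFα replicate 2 (0.67, limma adjusted p = 0.0517). Of 26 members of this list 25 reached an FPKM of 1 in both WT+TNFα libraries and 21 in both WT libraries. In all 7 (26.9%) were higher and 3 (11.5%) lower, beside 31.9% and 15.3% of all tested genes. The median log2 difference of 0.31 became -0.08 under median-ratio scaling and -0.10 under quantile normalization.

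Of the NF-kB subunits Nfkb2, which encodes p100, was at 5.35 and 5.35 in WT+TNFα and 3.33 and 2.89 in WT (log2 difference 2.24, SE 0.31, limma adjusted p = 0.000455). Relb, the partner of its processed form p52, was at 1.38 and 1.3 in WT+TNFα and 2.64 and 2.45 in WT (log2 difference -1.20, SE 0.25, limma adjusted p = 0.00424). These partners therefore moved in opposite directions. The inhibitors that NF-kB induces were not uniformly raised. Nfkbia, which encodes IkBα, was at 5.76 and 5.86 in WT+TNFα and 5.07 and 4.74 in WT, without overlap, and did not pass (log2 difference 0.90, SE 0.50, limma adjusted p = 0.17), although it did in 4 of 25 alternatives, among them a fit to the 4 wild-type libraries alone (limma adjusted p = 0.0199) and leaving out Tnfrsf1α-/-+TNFα replicate 1 (0.00196) or replicate 2 (limma adjusted p = 0.002). Tnfaip3, which encodes the deubiquitinase A20, was at 0.49 and 0.39 in WT+TNFα and 2.42 and 1.01 in WT (log2 difference -1.28, SE 0.42, limma adjusted p = 0.0361), and its call was lost in 11 alternatives, among them leaving out WT replicate 1 (-0.57, limma adjusted p = 0.164), WT+TNFα replicate 1 (-1.33, 0.125) or replicate 2 (-1.22, 0.149), or any 1 of the untreated knockout libraries (limma adjusted p = 0.0585 or 0.0586). Nfkbia and Tnfaip3, like Icam1 below, were chosen after their values were seen, because they are textbook targets.

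Among the other NF-kB targets Tnfaip2, a TNF-induced regulator of membrane extensions, was at 2.41 and 2.36 in WT+TNFα and 6.05 and 5.18 in WT (log2 difference -3.23, SE 0.29, limma adjusted p = 2.78e-05). Ier3, an early survival gene, was at 5.39 and 5.42 in WT+TNFα and 8.5 and 8.19 in WT (log2 difference -2.94, SE 0.38, limma adjusted p = 0.000318). Both were lower after TNFα in each library, as were 3598 of all 11860 tested genes. Icam1, a leukocyte adhesion molecule, was at 6.47 and 5.96 in WT+TNFα and 4.74 and 4.15 in WT (log2 difference 1.77, SE 0.47, limma adjusted p = 0.0151), a call lost in 4 alternatives, among them leaving out WT replicate 2 (1.47, limma adjusted p = 0.0944) or WT+TNFα replicate 1 (1.52, limma adjusted p = 0.108). Of the 25 listed NF-kB genes 16 reached an FPKM of 1 in both WT+TNFα libraries and 19 in both WT libraries, and of 22 tested 3 (13.6%) were higher and 7 (31.8%) lower, beside 31.9% and 15.3% of all tested genes. Of these, 2 were higher and 10 lower under median-ratio scaling and 1 higher and 13 lower under quantile normalization. Of the 16 with a mean of 1 or more in both groups 3 (18.8%) were higher and 4 (25%) lower. Among all such genes 32.3% were higher and 11.5% lower.

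Most chemokines that passed were lower. Cxcl1, which attracts neutrophils, was at 0.98 and 1.15 in WT+TNFα and 8.35 and 8.18 in WT (log2 difference -7.20, SE 0.21, limma adjusted p = 1.33e-08). Cxcl10, which attracts T cells, was at 4.44 and 4.63 in WT+TNFα and 6.95 and 6.98 in WT (log2 difference -2.43, SE 0.30, limma adjusted p = 0.000229). Csf1, the macrophage growth factor, was at 1.46 and 1.67 in WT+TNFα and 5.86 and 4.99 in WT (log2 difference -3.86, SE 0.47, limma adjusted p = 0.000237). The opposite direction was seen for Il33, an alarmin held in the nucleus, at 3.62 and 3.3 in WT+TNFα and 1.24 and 1.45 in WT (log2 difference 2.12, SE 0.25, limma adjusted p = 0.000182). Ccl20, the ligand of CCR6, was at 6.99 and 7.12 in WT+TNFα and 0 and 3.08 in WT (log2 difference 5.51, SE 0.77, limma adjusted p = 0.00052), so the WT libraries themselves were far apart; it was chosen after its values were seen. Of 28 chemokines and cytokines 9 reached an FPKM of 1 in both WT+TNFα libraries and 12 in both WT libraries. Of 19 tested 3 (15.8%) were higher and 10 (52.6%) lower, beside 31.9% and 15.3% of all tested genes.

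Immediate early genes were called about as often as all genes. Btg2, an antiproliferative gene, was at 5.37 and 5.55 in WT+TNFα and 2.8 and 2.83 in WT (log2 difference 2.64, SE 0.23, limma adjusted p = 2.67e-05). Egr1, a zinc finger factor that growth signals induce, was at 6.32 and 6.69 in WT+TNFα and 9.19 and 9.3 in WT (log2 difference -2.74, SE 0.25, limma adjusted p = 2.92e-05). The AP-1 gene Junb was at 10.6 and 11.08 in WT+TNFα and 5.8 and 5.63 in WT. Btg2 and Junb were thus higher and Egr1 lower in every treated library. Of 25 tested members 7 (28%) were higher and 3 (12%) lower, beside 31.9% and 15.3% of all tested genes, while 5 were higher and 8 lower under median-ratio scaling and 5 higher and 9 lower under quantile normalization. The AP-1 motif TGAGTCA was in 0 of 20 windows of this list and in 4.63% of all windows.

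**Figure D3:**
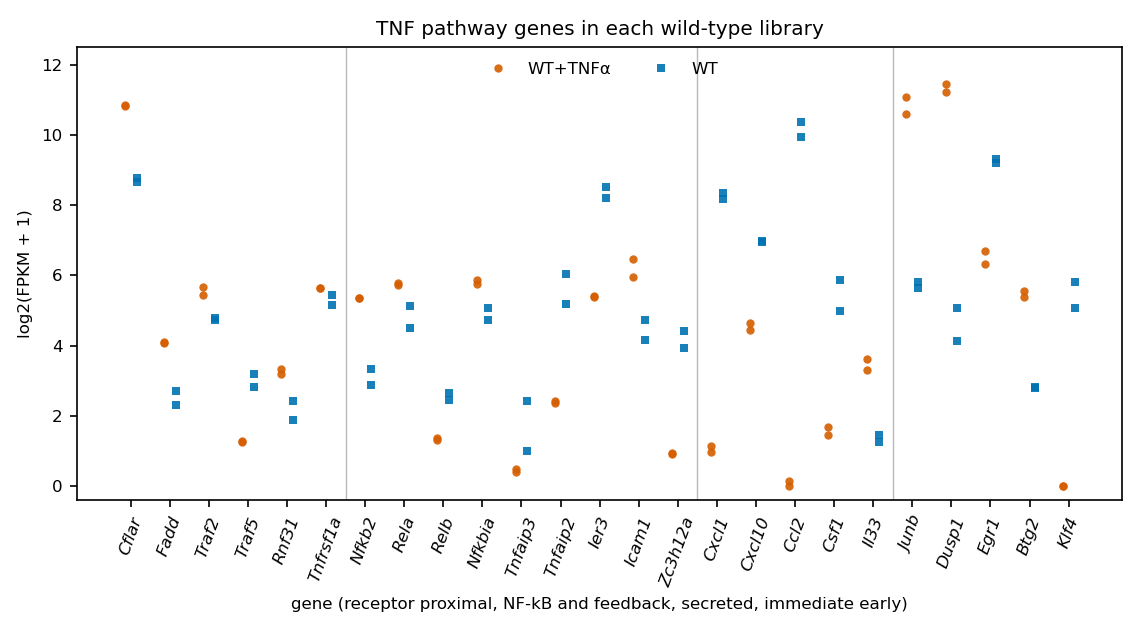
Each column is 1 TNF pathway gene; circles give the level, log2(FPKM + 1), in the 2 WT+TNFα libraries and squares that in the 2 WT libraries, with grey lines between receptor-proximal, NF-kB and feedback, secreted, and immediate early genes. Junb, Dusp1 and Nfkb2 have circles above squares, and Cxcl1, Ccl2 and Ier3 have circles below squares.

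Genes of mature liver cells were often present in WT+TNFα and listed at 0 in WT. The hepatocyte lists hold 347 lines, of which 208 (59.9%) reached an FPKM of 1 in both WT+TNFα libraries and 80 (23.1%) in both WT libraries, beside 46.5% and 42.2% of all lines. Listed at 0 in both WT libraries, with an FPKM of at least 10 in both WT+TNFα libraries, were 242 genes (1.08% of lines). Of them 59 were in these lists, which hold 347 of all 22384 lines. In each of the 8 knockout libraries 169 of the 242 were at a level under 1, so the others were not confined to WT+TNFα. Only 67 genes (0.299%) met the reverse criterion, 1 of them in these lists. In bulk RNA more cells of a type and more RNA per cell cannot be told apart. Among the 75 hepatocyte list genes with a mean FPKM of 1 or more in both groups 53 (70.7%) were higher and 2 (2.67%) lower, with a median log2 difference of 1.97 beside 0.41 for all such genes.

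Promoters of 2 of these genes are shown for their match to the motif of the liver factor HNF4, CAAAGTNCA. Capitals mark the motif, which is on the opposite strand in Creb3l3. The regions are chr7:9273112-9273221, plus strand (Creb3l3) and chr14:20771804-20771913, plus strand (Sult1b1), from RefSeq build GRCr8.
Creb3l3: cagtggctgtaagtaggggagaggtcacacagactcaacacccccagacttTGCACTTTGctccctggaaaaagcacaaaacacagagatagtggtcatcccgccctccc
Sult1b1: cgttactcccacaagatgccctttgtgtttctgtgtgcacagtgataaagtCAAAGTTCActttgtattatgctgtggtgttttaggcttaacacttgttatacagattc
Sult1b1, a sulfotransferase, was at 4.63 and 4.22 in WT+TNFα and listed at 0 in the other 10 libraries. The HNF4 motif was in 1.24% of all windows and in 10 of 277 windows of the hepatocyte lists. It was in 6 of the 193 windows (3.11%) of genes with an FPKM of at least 10 in WT+TNFα and listed at 0 in WT, and in 0 of 48 windows of the genes that met the reverse criterion.

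The liver transcription factors themselves were among these genes. Hnf4a, a nuclear receptor needed for hepatocyte identity, was at 5.22 and 5.13 in WT+TNFα and listed at 0 in both WT libraries. Nr0b2, a nuclear receptor that represses bile acid synthesis, was at 5.91 and 6.06 in WT+TNFα, and Creb3l3, a liver membrane-bound factor of lipid metabolism, at 6.88 and 7.07, with both listed at 0 in both WT libraries. Of 28 such factors 22 reached an FPKM of 1 in both WT+TNFα libraries and 9 in both WT libraries.

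Secreted liver proteins followed the same division. Igfbp1, an inhibitor of insulin-like growth factors, was at 9.76 and 9.49 in WT+TNFα, and Rbp4, the retinol carrier, at 8.38 and 8.41, with both listed at 0 in both WT libraries. F2, for prothrombin, was at 8.15 and 7.89, Fgb, a fibrinogen chain, at 6.76 and 6.58, and Plg, for plasminogen, at 5.37 and 5.16 in WT+TNFα, and all 3 were listed at 0 in both WT libraries. Lipc, the hepatic lipase, was at 5.53 and 5.41 in WT+TNFα and listed at 0 in both WT libraries. Apoe, the apolipoprotein of remnant particles, was present in all 4 libraries, at 10.64 and 10.71 in WT+TNFα and 0.76 and 1.26 in WT (log2 difference 9.67, SE 0.27, limma adjusted p = 1.07e-08). Of 27 plasma carrier and acute phase lines 18 reached an FPKM of 1 in both WT+TNFα libraries and 3 in both WT libraries, as did 15 and 3 of 22 for apolipoproteins and lipid export and 23 and 5 of 45 for complement and coagulation.

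Enzymes of liver metabolism were divided in the same way. Tat, which starts tyrosine breakdown, was at 8 and 7.9 in WT+TNFα, and Bhmt, which remethylates homocysteine, at 7.25 and 6.88, and both were listed at 0 in both WT libraries. Pck1, the gluconeogenic enzyme PEPCK, was at 8.96 and 8.9 in WT+TNFα and listed at 0 in both WT libraries. An FPKM of 1 was reached in both WT+TNFα and in both WT libraries by 23 and 10 of 34 lines of the urea cycle and amino acid breakdown, 14 and 5 of 16 of gluconeogenesis and glycogen, 13 and 3 of 24 of bile acids, and 17 and 4 of 52 cytochrome P450 lines. For conjugating enzymes it was 30 and 17 of 47, and of the 17 tested in this list with a mean of 1 or more in both groups 10 were higher by limma and the other 7 did not pass. The fetal and oncofetal list did not share this division: 4 of 18 lines reached an FPKM of 1 in both WT+TNFα libraries and 5 in both WT libraries.

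**Figure D4:**
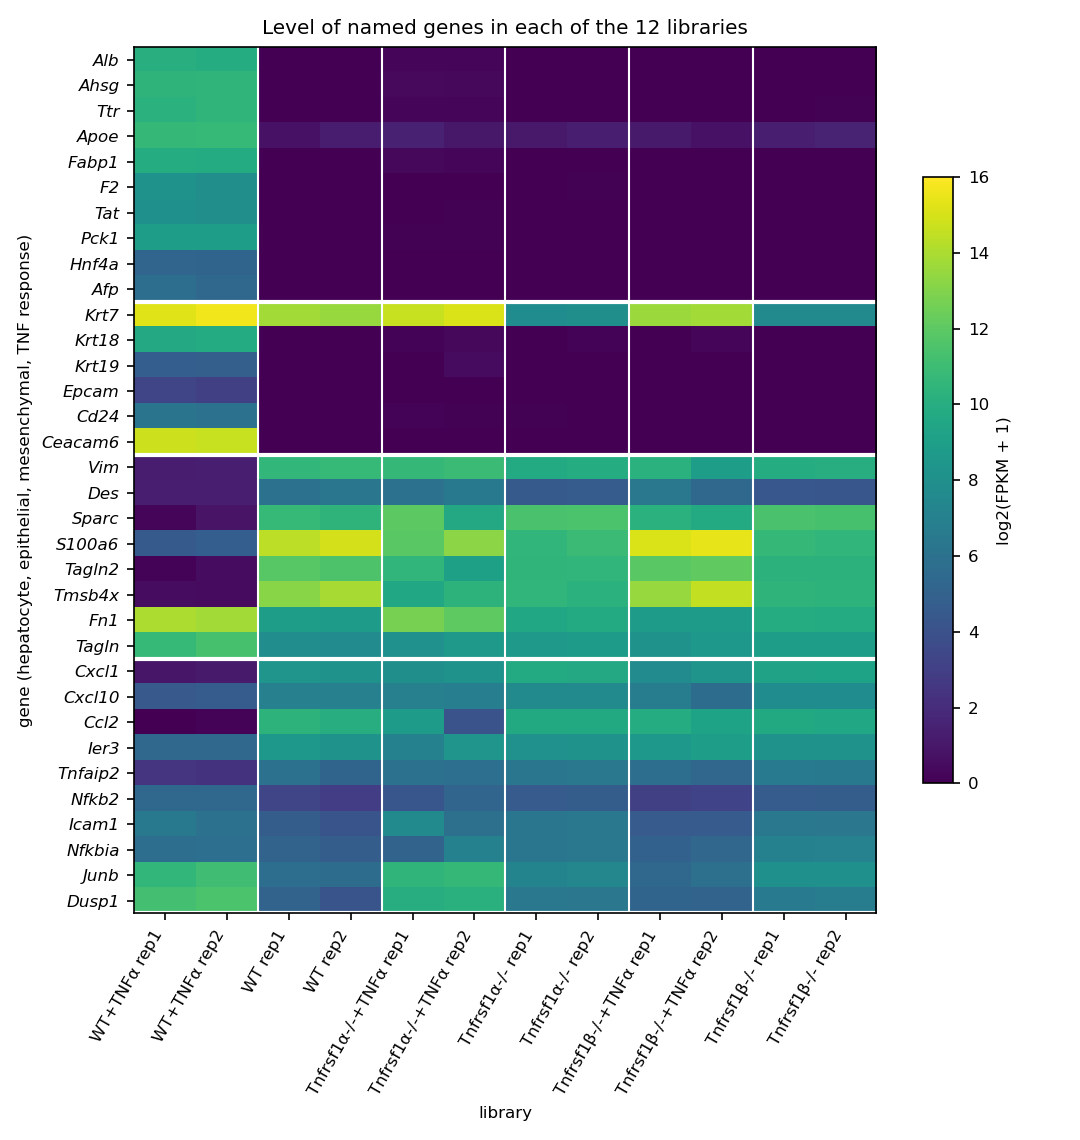
Colour gives the level, log2(FPKM + 1), of 34 genes (down the page, in 4 blocks of hepatocyte, epithelial, mesenchymal and TNF response genes) in each of the 12 libraries (across). The first 2 columns, WT+TNFα, are bright for hepatocyte genes such as Hnf4a and Tat, which are dark in all other columns, and dark for Vim, Sparc, Tagln2 and Tmsb4x, which are bright elsewhere.

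Of the 10 genes with the highest levels after TNFα 4 were aldo-keto reductases, enzymes that reduce aldehydes and steroids. Akr1b10 was at 16.62 and 16.78 in WT+TNFα and 4.78 and 5.44 in WT (log2 difference 11.59, SE 0.22, limma adjusted p = 1.77e-09), the highest mean level of any gene in WT+TNFα. Akr1c3 was at 16.25 and 16.61 in WT+TNFα and 10.83 and 11.04 in WT (log2 difference 5.49, SE 0.19, limma adjusted p = 3.64e-08). Akr1c1 was at 14.43 and 14.81 in WT+TNFα and 3.24 and 2.11 in WT (log2 difference 11.94, SE 0.33, limma adjusted p = 9.51e-09). Of 16 tested members 12 were higher and 2 lower. Of the lower ones Akr1b1, the aldose reductase of the polyol pathway, was at 0.33 and 0.61 in WT+TNFα and 9.84 and 10.14 in WT (log2 difference -9.52, SE 0.18, limma adjusted p = 1.77e-09), and Akr1a1 was lower by far less. Akr1c1, Akr1c3 and Alpp, named further on, are symbols best known from human genes; rat genes in RefSeq (GRCr8) carry them too, but the annotation behind the symbols of the deposited table is not given in the sources used here. Reads of these close paralogues may be split between them in ways the sources do not state. Among 35 aldo-keto reductases and aldehyde dehydrogenases 30 reached an FPKM of 1 in both WT+TNFα libraries and 17 in both WT libraries, and of 16 with a mean of 1 or more in both groups 14 were higher and 1 lower, beside 32.3% and 11.5% of all such genes. Aldh3a1, an aldehyde dehydrogenase of epithelial cells, was at 14.88 and 15.28 in WT+TNFα and 10.62 and 10.41 in WT (log2 difference 4.56, SE 0.23, limma adjusted p = 4.23e-07).

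Other genes at the top of WT+TNFα were B2m, the light chain of MHC class I, at 15.54 and 15.85 in WT+TNFα and 9.9 and 9.95 in WT (log2 difference 5.77, SE 0.24, limma adjusted p = 1.19e-07), and Tgm2, a transglutaminase, at 14.17 and 14.45 in WT+TNFα and 7.59 and 7 in WT (log2 difference 7.02, SE 0.24, limma adjusted p = 3.11e-08). The symbol Ceacam6 was at 14.81 and 14.64 in WT+TNFα and listed at 0 in the other 10 libraries; it names an epithelial adhesion molecule in human, whereas RefSeq (GRCr8) lists the rat gene of this symbol as a noncoding RNA, so which transcript the value measures is unknown. Alpp, an alkaline phosphatase, was at 12.52 and 12.37 in WT+TNFα and listed at 0 in both WT libraries. Several genes at the top of WT were lower after TNFα. Lmna, for nuclear lamins A and C, was at 13.27 and 13.95 in WT+TNFα and 15.34 and 15.11 in WT (log2 difference -1.61, SE 0.25, limma adjusted p = 0.000956). S100a6, a calcium-binding protein, was at 4.55 and 4.8 in WT+TNFα and 14.42 and 14.94 in WT (log2 difference -10.01, SE 0.41, limma adjusted p = 1e-07).

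Of 159 lines in the epithelial lists 74 (46.5%) reached an FPKM of 1 in both WT+TNFα libraries and 58 (36.5%) in both WT libraries, beside 46.5% and 42.2% of all lines. Of 86 tested members 37 (43.0%) were higher and 22 (25.6%) lower, beside 31.9% and 15.3% of all tested genes. Among the 45 with a mean FPKM of 1 or more in both groups 16 (35.6%) were higher and 6 (13.3%) lower. Of all such genes 32.3% were higher and 11.5% lower. Cdh1, for the epithelial cadherin, was at 10.71 and 9.98 in WT+TNFα and 3.24 and 3.92 in WT (log2 difference 6.76, SE 0.51, limma adjusted p = 8.34e-06); it was chosen after its values were seen. Sox9 differed by 3.68, SE 0.26, limma adjusted p = 5.49e-06, and Krt7 by 1.81, SE 0.25, limma adjusted p = 0.00044, a call of Krt7 lost under quantile normalization (0.33, limma adjusted p = 0.262). Lgr5, a stem cell receptor of the Wnt pathway, was at 4.75 and 4.45 in WT+TNFα and listed at 0 in both WT libraries. In the list of progenitor and bile duct markers 15 of 23 lines reached an FPKM of 1 in both WT+TNFα libraries and 8 in both WT libraries, and of 6 with a mean of 1 or more in both groups 5 were higher by limma and the other did not pass. Other epithelial genes were lower. Krt14, a keratin of stratified epithelium, was at 0 and 0.1 in WT+TNFα and 9.93 and 10.02 in WT (log2 difference -9.93, SE 2.05, limma adjusted p = 0.00449). Of 10 tested keratins 5 were higher and 3 lower, and of 35 CEACAM and other adhesion antigens 13 and 12. Gja1, for the gap junction protein connexin 43, was at 0.05 and 0.09 in WT+TNFα and 6.82 and 6.06 in WT (log2 difference -6.37, SE 0.33, limma adjusted p = 5.51e-07). Of 34 junction lines 21 reached an FPKM of 1 in both WT+TNFα libraries and 15 in both WT libraries.

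Several defining genes of mesenchymal and contractile cells were lower after TNFα. Of 207 lines in the mesenchymal lists 75 (36.2%) reached an FPKM of 1 in both WT+TNFα libraries and 97 (46.9%) in both WT libraries, and of the 63 with a mean FPKM of 1 or more in both groups 22 (34.9%) were higher and 21 (33.3%) lower, beside 32.3% and 11.5% of all such genes. Tagln2, an actin-bundling protein, was at 0.18 and 0.51 in WT+TNFα and 11.82 and 11.56 in WT (log2 difference -11.34, SE 0.40, limma adjusted p = 3.64e-08). Des, the filament protein desmin, was at 1.33 and 1.34 in WT+TNFα and 6.04 and 6.28 in WT (log2 difference -4.83, SE 0.33, limma adjusted p = 4.07e-06). Lgals1, a lectin of mesenchymal cells, was at 7.77 and 8.08 in WT+TNFα and 13.37 and 13.69 in WT (log2 difference -5.60, SE 0.36, limma adjusted p = 2.44e-06). All 3 were lower in each treated library than in either untreated one, as were 3598 of all 11860 tested genes. In the contractile list, of 16 with a mean of 1 or more in both groups 3 were higher and 10 lower. The exceptions included Tpm1, a tropomyosin, at 14.09 and 13.96 in WT+TNFα and 11.15 and 11.22 in WT (log2 difference 2.84, SE 0.17, limma adjusted p = 1.28e-06), and Tagln, the smooth muscle protein SM22, which differed by 3.28.

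Extracellular matrix genes split by gene. Fn1, for fibronectin, was at 14.05 and 13.75 in WT+TNFα and 8.88 and 8.75 in WT (log2 difference 5.09, SE 0.24, limma adjusted p = 2.77e-07). Col4a2, a basement membrane collagen chain, was at 11.87 and 11.94 in WT+TNFα and 6.97 and 4.92 in WT (log2 difference 5.96, SE 0.54, limma adjusted p = 3e-05). Col4a4, another chain of the same collagen type, was at 7.28 and 6.6 in WT+TNFα and 9.89 and 9.73 in WT (log2 difference -2.87, SE 0.26, limma adjusted p = 2.84e-05). Sparc, a secreted protein that binds collagen, differed by -9.98, and Timp2, an inhibitor of metalloproteinases, was at 3.59 and 3.87 in WT+TNFα and 9.3 and 9.61 in WT (log2 difference -5.72, SE 0.51, limma adjusted p = 2.59e-05). Of 23 tested collagens 5 were higher and 7 lower, of 30 matrix glycoproteins 8 and 11, and of 22 metalloproteinases and inhibitors 5 and 4, beside 31.9% and 15.3% of all tested genes. Under median-ratio scaling the last were 5 and 6 and the glycoproteins 5 and 11, and under quantile normalization 4 and 8 and 5 and 11. Integrins, the receptors for matrix, split too: Itgb5 was at 11.21 and 11.36 in WT+TNFα and 6 and 5.72 in WT (log2 difference 5.43, SE 0.32, limma adjusted p = 1.57e-06), and Itga3 at 1.26 and 1.06 in WT+TNFα and 5.73 and 4.9 in WT (log2 difference -4.16, SE 0.32, limma adjusted p = 9.07e-06).

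Markers of cell types other than liver epithelium and mesenchyme were mostly near 0 in all 4 libraries. Of 103 such lines 18 reached an FPKM of 1 in both WT+TNFα libraries and 14 in both WT libraries. Ptprc, the common leukocyte antigen CD45, was listed at 0 in all 4. Intestinal and gastric markers reached an FPKM of 1 in both WT+TNFα libraries in 5 of 16 lines and in both WT libraries in 0, and their summed FPKM was 194.3 and 180.1 in WT+TNFα, 2.01 and 1.59 in WT and 0.231 to 4.76 in the other 8. For neural and glial markers the sum was 978.8 and 922.2 in WT+TNFα and 477.5 and 572.5 in WT. Most of the WT+TNFα sum was Sox2, a factor of neural and other stem cells. It was at 9.9 and 9.8 in WT+TNFα and listed at 0 in both WT libraries. Of 5 tested members of this list 2 (40%) were higher and 2 (40%) lower, with a median log2 difference of -1.14. Of all tested genes 31.9% were higher and 15.3% lower. Cd79a, a B cell receptor chain, was at 5.06 and 5.05 in WT+TNFα and listed at 0 in both WT libraries. For erythroid markers the sum was 52.6 and 43.9 in WT+TNFα and 31.1 and 28.65 in WT, for endothelial markers 36.5 and 52.1 in WT+TNFα and 76.5 and 45.2 in WT, for muscle markers 23.3 and 24.9 in WT+TNFα and 79.8 and 102 in WT, and for leukocyte markers 48.95 and 50.35 in WT+TNFα and 34.6 and 33.1 in WT. The part of these cells in the results was not tested.

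Genes of cell division and DNA synthesis did not move as a group. Mcm7, a subunit of the replicative helicase, was at 12.73 and 13.06 in WT+TNFα and 6.61 and 6.39 in WT (log2 difference 6.39, SE 0.19, limma adjusted p = 1.43e-08). Aurkb, a mitotic kinase, was at 10.81 and 10.77 in WT+TNFα and 5.02 and 4.42 in WT (log2 difference 6.07, SE 0.22, limma adjusted p = 4.53e-08). Ube2c, the ubiquitin-conjugating enzyme of the anaphase-promoting complex, was at 11.9 and 12.27 in WT+TNFα and 13.23 and 13.05 in WT (log2 difference -1.06, SE 0.20, limma adjusted p = 0.00311). Of 33 tested replication genes 11 (33.3%) were higher and 7 (21.2%) lower, and of 29 mitosis genes 13 (44.8%) were higher and 9 (31.0%) lower. Of all tested genes 31.9% were higher and 15.3% lower. The medians of the 2 lists, 0.28 and 0.41, turned to -0.17 and -0.07 under median-ratio scaling and to -0.27 and -0.15 under quantile normalization. Among 18 p53 targets 6 (33.3%) were higher and 5 (27.8%) lower. Phlda3, a p53-induced inhibitor of AKT, was at 0.05 and 0.09 in WT+TNFα and 8.44 and 8.59 in WT (log2 difference -8.45, SE 0.26, limma adjusted p = 1.58e-08), and Fas, a death receptor, at 0.24 and 0.31 in WT+TNFα and 3.86 and 3.95 in WT (log2 difference -3.63, SE 0.32, limma adjusted p = 2.3e-05).

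Genes of the unfolded protein response and of ATF4, the factor that raises amino acid synthesis and transport genes in stress, were higher where they passed. Asns, asparagine synthetase, was at 6.92 and 6.92 in WT+TNFα and 3.89 and 3.69 in WT (log2 difference 3.13, SE 0.61, limma adjusted p = 0.00327). Chac1, which breaks down glutathione, was at 7.14 and 7.02 in WT+TNFα and 3.4 and 3.14 in WT (log2 difference 3.81, SE 0.71, limma adjusted p = 0.00255). Ddit4, an inhibitor of mTORC1, was at 6.46 and 6.39 in WT+TNFα and 2.32 and 2.29 in WT (log2 difference 4.12, SE 0.33, limma adjusted p = 1.42e-05). Hspa5, the chaperone BiP, which unfolded proteins raise, did not pass, at 8.41 and 8.43 in WT+TNFα and 8.41 and 8.31 in WT (log2 difference 0.06, SE 0.39, limma adjusted p = 0.92, -0.43 under median-ratio scaling and -0.50 under quantile normalization); it was chosen after its values were seen. Of 24 listed genes 13 (54.2%) were higher by limma and the other 11 did not pass, beside 31.9% higher and 15.3% lower of all tested genes. Under median-ratio scaling 11 were higher and 2 lower, and under quantile normalization 7 and 2. Aars, the alanyl-tRNA synthetase, was at 12.62 and 12.88 in WT+TNFα and 6.05 and 5.67 in WT (log2 difference 6.88, SE 0.29, limma adjusted p = 1.15e-07). Of 20 tRNA synthetases 12 (60%) were higher by limma and the other 8 did not pass, with 3 higher and 1 lower under median-ratio scaling and 2 and 1 under quantile normalization.

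Among metabolic genes those for fatty acids moved together. Acly, which supplies acetyl-CoA for lipid synthesis, was at 8.12 and 7.99 in WT+TNFα and 5.44 and 4.46 in WT (log2 difference 3.11, SE 0.36, limma adjusted p = 0.000151). Of 23 tested fatty acid genes 18 were higher by limma and the other 5 did not pass, with 16 higher under either scaling; among the 21 with a mean FPKM of 1 or more in both groups 16 were higher. Of 24 cholesterol synthesis genes 12 were higher and 2 lower, with 8 higher under median-ratio scaling and 7 under quantile normalization. Of 21 genes of the NRF2 antioxidant response 9 were higher and 1 lower, with 8 and 7 higher under the same scalings. Of all tested genes 31.9% were higher and 15.3% lower. Osgin1, an oxidative stress gene, was at 6.5 and 6.71 in WT+TNFα and 2.44 and 2.26 in WT (log2 difference 4.26, SE 0.30, limma adjusted p = 4.62e-06), and Fth1, the iron-storing ferritin heavy chain, at 12.83 and 12.99 in WT+TNFα and 10.45 and 10.93 in WT (log2 difference 2.22, SE 0.37, limma adjusted p = 0.00138). Of 81 tested nuclear genes of the respiratory chain 15 were higher and 7 lower, with a median log2 difference of -0.12, against 4 higher and 12 lower under median-ratio scaling and 6 higher and 35 lower under quantile normalization.

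Ribosomal and mitochondrial transcripts took a smaller share after TNFα. Genes for cytosolic ribosomal proteins held 7.95% and 8.33% of total FPKM in WT+TNFα and 16.1% and 22.6% in WT, and mitochondrially encoded genes 1.10% and 1.04% in WT+TNFα and 4.58% and 2.72% in WT. Of 94 tested ribosomal protein lines 3 were higher and 22 (23.4%) lower, beside 15.3% of all tested genes, with a median log2 difference of -0.57. Under median-ratio scaling 32 were lower and under quantile normalization 69, with medians of -1.06 and -1.07. Rpl41, one of the highest genes in WT, was at 13.45 and 13.63 in WT+TNFα and 13.56 and 14.4 in WT and did not pass (limma adjusted p = 0.428), though it did under quantile normalization (-1.37, limma adjusted p = 0.0112). Mt-co2, a subunit of cytochrome c oxidase, was at 11.12 and 10.76 in WT+TNFα and 13.32 and 12.7 in WT (log2 difference -2.07, SE 0.40, limma adjusted p = 0.00311). The 10 highest genes held 24.1% and 27.5% of total FPKM in WT+TNFα and 16.01% and 15.2% in WT, and their part in the lower shares was not tested.

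The genes of the series title were measured in the same libraries. Hnrnpk was at 11.41 and 10.33 in WT+TNFα and 7.24 and 6.55 in WT (log2 difference 3.97, SE 0.62, limma adjusted p = 0.000997). Pcbp3, which carries the same kind of KH RNA-binding domains, was at 0.6 and 0.52 in WT+TNFα and 4.05 and 3.74 in WT (log2 difference -3.34, SE 0.27, limma adjusted p = 1.35e-05). Of 25 hnRNP genes 8 (32%) were higher and 1 (4%) lower, beside 31.9% and 15.3% of all tested genes, with a median log2 difference of 0.60. Under median-ratio scaling 4 were higher and 1 lower, and under quantile normalization 1 and 1. Yap1 was at 4.53 and 4.42 in WT+TNFα and 4.78 and 2.3 in WT, so the WT libraries enclosed the treated ones and it did not pass (log2 difference 0.93, SE 0.65, limma adjusted p = 0.268); without WT replicate 1 it did (2.17, limma adjusted p = 0.00149), and without WT replicate 2 the log2 difference was -0.31. Wwtr1, for TAZ, was at 3.65 and 3.55 in WT+TNFα and 4.61 and 4.13 in WT (log2 difference -0.77, SE 0.23, limma adjusted p = 0.0242), a call lost in 5 alternatives, among them a fit to the 4 wild-type libraries alone (limma adjusted p = 0.0551) and leaving out WT replicate 1 (-0.53, 0.109), WT+TNFα replicate 1 (-0.82, 0.0752) or WT+TNFα replicate 2 (-0.72, 0.104).

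Targets of YAP and TAZ, which act through TEAD factors, were higher in 10 of 21 cases (47.6%) and lower in 5 (23.8%), beside 31.9% and 15.3% of all tested genes. Their median log2 difference of 0.52 was 0.10 under median-ratio scaling and -0.03 under quantile normalization. The promoter of Amotl2, an angiomotin that binds YAP, is shown with its match to the TEAD motif GGAATG on the opposite strand in capitals (chr8:112182496-112182605, plus strand, RefSeq build GRCr8).
Amotl2: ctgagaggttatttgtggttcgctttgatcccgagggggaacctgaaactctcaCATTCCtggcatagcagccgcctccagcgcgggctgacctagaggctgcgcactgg
This motif is short and was in 14.2% of all windows and in 4 of 18 windows of the target list. Amotl2 was at 10.67 and 10.68 in WT+TNFα and 6.03 and 5.35 in WT (log2 difference 4.99, SE 0.23, limma adjusted p = 2.16e-07). Of 2 classic targets chosen after their values were seen, Ctgf was at 10.71 and 11.13 in WT+TNFα and 8.08 and 7.63 in WT (log2 difference 3.07, SE 0.27, limma adjusted p = 2.67e-05), and Cyr61 at 3.21 and 3.46 in WT+TNFα and 0 and 7.85 in WT, so that the untreated libraries lay on either side of the treated ones (log2 difference -0.60, SE 2.12, limma adjusted p = 0.836); the difference was -4.52 without WT replicate 1 (limma adjusted p = 0.0209) and 3.33 without WT replicate 2 (limma adjusted p = 0.0745). Among Hippo components Frmd6, a scaffold upstream of the kinases, was at 8.68 and 8.25 in WT+TNFα and 5.86 and 6.47 in WT (log2 difference 2.30, SE 0.24, limma adjusted p = 9.26e-05). Of 24 Hippo components 5 (20.8%) were higher and 4 (16.7%) lower, against 4 and 10 under median-ratio scaling and 2 and 10 under quantile normalization.

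Interferon-stimulated genes were more often lower. Irf7, the factor that amplifies the interferon response, was at 3.48 and 3.59 in WT+TNFα and 7.62 and 7.01 in WT (log2 difference -3.78, SE 0.41, limma adjusted p = 0.0001). Ifi27, an interferon-induced mitochondrial protein, was at 6.38 and 6.74 in WT+TNFα and 9.91 and 10.04 in WT (log2 difference -3.42, SE 0.25, limma adjusted p = 6.86e-06). Of 33 lines 23 reached an FPKM of 1 in both WT+TNFα libraries and 29 in both WT libraries. Of 32 tested members 5 (15.6%) were higher and 12 (37.5%) lower, beside 31.9% and 15.3% of all tested genes, and of the 22 with a mean FPKM of 1 or more in both groups 5 were higher and 6 lower.

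Growth factor pathways moved gene by gene. Areg, the EGF receptor ligand amphiregulin, was at 10.91 and 10.81 in WT+TNFα and 6.18 and 6.4 in WT (log2 difference 4.57, SE 0.16, limma adjusted p = 3.03e-08). Fzd1, a Wnt receptor, was at 7.5 and 7.21 in WT+TNFα and 1.44 and 0.87 in WT (log2 difference 6.20, SE 0.26, limma adjusted p = 1.11e-07). Tgfb1, the cytokine TGF-β1, was at 3.02 and 3.08 in WT+TNFα and 5.53 and 5.34 in WT (log2 difference -2.39, SE 0.18, limma adjusted p = 8.81e-06). Smad6, an inhibitor of BMP signalling, was at 2.38 and 2.37 in WT+TNFα and 4.67 and 4.02 in WT (log2 difference -1.97, SE 0.29, limma adjusted p = 0.000663). Of 21 tested growth factor receptors and ligands 11 were higher and 2 lower, of 26 Wnt pathway genes 13 and 5, of 13 IGF pathway genes 7 and 5, of 27 TGF-β and BMP genes 4 and 6 and of 15 Notch genes 3 and 3. In percent, 52.4%, 50%, 53.8%, 14.8% and 20% of these lists in turn were higher and 9.52%, 19.2%, 38.5%, 22.2% and 20% lower, beside 31.9% and 15.3% of all tested genes.

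**Figure D5:**
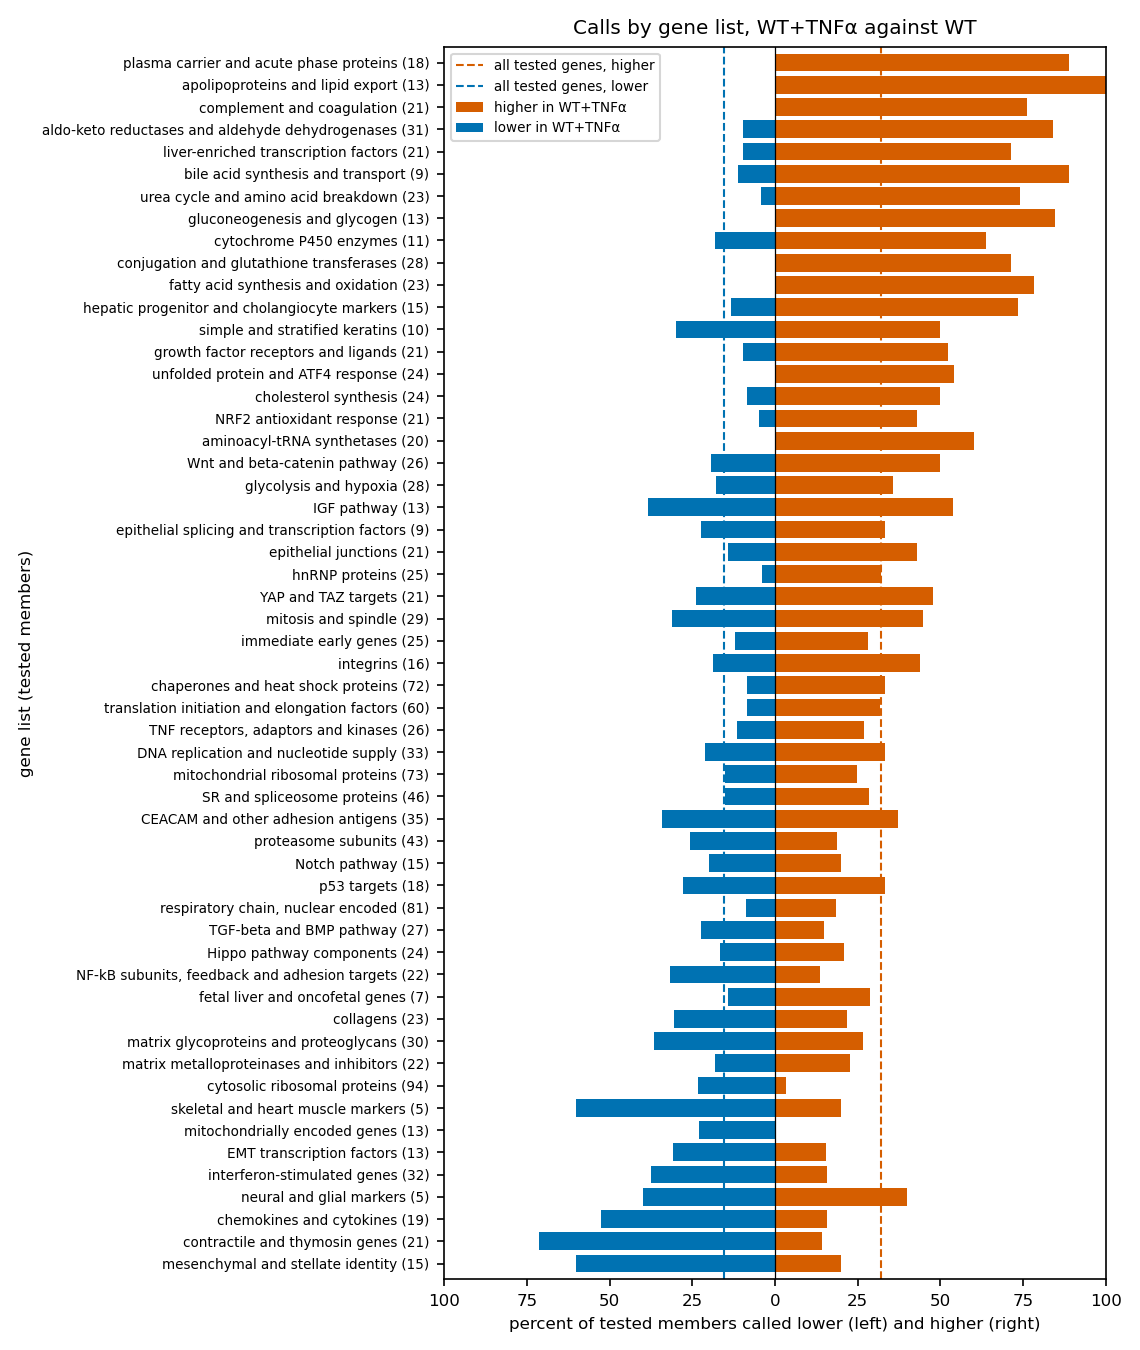
Bars to the right give the percent of each list's tested members that were higher in WT+TNFα than in WT by limma at an adjusted p under 0.05, and bars to the left the percent that were lower; lists with at least 5 tested members run from the highest median log2 difference at the top to the lowest at the bottom, and dashed lines mark 31.9% and 15.3%, the shares of all tested genes. Hepatocyte lists fill the top, and chemokines and the mesenchymal and contractile lists the bottom.

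Most tested genes, 10462 of 11860, lay outside every list. Of these 3286 (31.4%) were higher and 1564 (14.9%) lower, near the 31.9% and 15.3% of all tested genes. Tested genes, list members included, were also grouped by the leading letters of their symbols into 121 families of at least 10 tested lines. The Akr, Aldh, Cyp, Krt, Rps, Rpl and Col families overlap lists above and are no separate look at those genes. The highest medians were 5.03 for Akr, 3.68 for Sox, 2.94 for Aldh, 2.31 for Cyp, 1.61 for Krt, 1.34 for Hsd, 1.32 for Akap and 1.21 for Atxn. A mean FPKM of 1 or more in both groups was reached by 7 of 16 Akr, 6 of 13 Sox, 9 of 15 Aldh and 4 of 16 Cyp lines. For Krt it was 4 of 10, for Hsd 6 of 12, for Akap 11 of 13 and for Atxn 6 of 10. Lines that reached it in 1 group only had to differ, so these medians are in part set by the filter. Of 13 Akap genes, which anchor protein kinase A, 9 were higher by limma and the other 4 did not pass. Akap12 was at 12.43 and 12.1 in WT+TNFα and 6.56 and 6.71 in WT (log2 difference 5.63, SE 0.19, limma adjusted p = 3.11e-08). The lowest medians were -0.85 for Hist, -0.83 for Stx, -0.78 for Smim, -0.65 for Rps, -0.56 for Parp and Rpl, and -0.51 for Col and Klf. Of 25 histone lines 5 were higher and 12 lower, and of 12 syntaxins, which guide vesicle fusion, 1 was higher and 6 lower. These 16 medians kept their sign under both scalings.

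Single genes outside the lists also moved far, though less than the list members Akr1c2 (log2 difference 15.77) and Ceacam6 (14.72). Amigo2, an adhesion molecule, was at 13.14 and 12.73 in WT+TNFα and 0.17 and 0.43 in WT (log2 difference 12.64, SE 0.21, limma adjusted p = 1.65e-09). Asph, an aspartyl hydroxylase of the endoplasmic reticulum, was at 13.79 and 13.32 in WT+TNFα and 1.51 and 1.43 in WT (log2 difference 12.09, SE 0.21, limma adjusted p = 1.7e-09). Pla2g2a, a secreted phospholipase, was at 0 and 0.05 in WT+TNFα and 11.21 and 11.7 in WT (log2 difference -11.43, SE 1.89, limma adjusted p = 0.00138). Anxa1, a phospholipid-binding annexin, was at 0.02 and 0.59 in WT+TNFα and 9.93 and 10.19 in WT (log2 difference -9.75, SE 0.52, limma adjusted p = 6.94e-07).

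Whether these responses differed from those under the knockout labels was tested in the same fit, and both tests share the 4 wild-type libraries. The labels themselves had limits: Tnfrsf1a was at 5.65 and 5.95 in Tnfrsf1α-/-+TNFα and 5.94 and 6.13 in untreated Tnfrsf1α-/- libraries, no lower than in wild type, and Tnfrsf1b was listed at 0 in the Tnfrsf1β-/- libraries and also in untreated wild type. The wild-type response differed from that in the libraries labelled Tnfrsf1α-/- in 4127 genes (34.8%), 2605 (22%) in which it was higher and 1522 (12.8%) in which it was lower, and from that under the label Tnfrsf1β-/- in 7654 genes (64.5%), 5606 (47.3%) higher and 2048 (17.3%) lower. The excess of higher responses was nearly gone or turned round under the other scalings, with 1910 higher and 2035 lower in the first test and 3407 and 3373 in the second under median-ratio scaling, and 1888 and 1910 in the first and 3219 and 3111 in the second under quantile normalization. The first count ran from 2392 without WT+TNFα replicate 1 to 7125 without Tnfrsf1α-/-+TNFα replicate 1, and was 2676 without WT+TNFα replicate 2 and 2429 and 2543 without replicate 1 or 2 of untreated Tnfrsf1α-/-. Of 194 tested hepatocyte genes 127 and 149 had a higher response in wild type than under the labels Tnfrsf1α-/- and Tnfrsf1β-/-, and of 129 mesenchymal genes 45 and 34 had a lower one. Only 75 of these hepatocyte and 63 of these mesenchymal genes had a mean FPKM of 1 or more in both WT+TNFα and WT. A gene that passed the filter through WT+TNFα alone had to show a larger response in wild type, so these counts are descriptions. Of 92 TNF pathway genes 19 and 42 had a higher response and 14 and 17 a lower one.

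Apoe shows the hepatocyte pattern: its log2 difference with TNFα was 9.67 in wild type, 0.04 under the label Tnfrsf1α-/- and -0.46 under Tnfrsf1β-/-. B2m differed by 5.77 in wild type and 5.60 under the label Tnfrsf1α-/-, a gap of 0.17 (SE 0.34, limma adjusted p = 0.72), and by 0.18 under Tnfrsf1β-/-. Hnrnpk was similar in this: it differed by 3.97 in wild type and 3.72 under the label Tnfrsf1α-/-, a gap of 0.25 (SE 0.88, limma adjusted p = 0.84), and by -0.18 under Tnfrsf1β-/-, a gap of 4.15 (SE 0.88, limma adjusted p = 0.00342). The SE of these gaps leaves room for differences between wild type and the Tnfrsf1α-/- label that this design could not show. Of the 591 genes (2.64% of lines) that were over 2 log2 units higher in both WT+TNFα libraries than in all other 10, 412 were at a level under 1 in each of the 8 knockout libraries. The genes were picked for lower levels in those same libraries, so this count is a description and no separate result. Another 284 genes (1.27%) were as far below the other 10, with 18 of them in the mesenchymal lists and 5 in the hepatocyte lists.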

How the data were processed

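Total RNA from HPCs, extracted with Trizol, was made into libraries from 1 ug with an Illumina TruSeq kit, per the labels' protocols. The authors deposited one table of log2 values for 12 libraries, with no unused column. The log2(FPKM + 1) scale was inferred from the values, which run from 0 to 16.8. The sources used here do not name the aligner, quantification tool, build or annotation. Of 22730 lines 346 were blank, and of the 22384 with a symbol 1835 share it with another line and were kept apart. Symbols of 92.2% of tested lines matched RefSeq (GRCr8).

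For genes averaging an FPKM of 1 or more limma 3.58.1 (R version 4.3.3) was run on the log2 values as deposited, whose pseudocount of 1 understates the change of low genes, with 6 group means over all 12 libraries, intensity trend, no block, two-sided p-values and Benjamini-Hochberg adjustment at 0.05 in each of 3 contrasts. The fit was tested on simulated data. Members and the 59 gene lists were chosen with earlier results of these data known, so list counts are descriptions. Named genes are the 12 highest and 12 lowest log2 differences among calls without overlap, the 10 highest levels in each group, up to 5 members of each list by smallest p, up to 3 of each named family, and Tnfrsf1a, Tnfrsf1b, Yap1, Wwtr1 and Hnrnpk; Nfkbia, Tnfaip3, Icam1, Ccl20, Cdh1, Hspa5, Ctgf, Cyr61 and Uba1y were chosen after their values were seen, and only some of the genes the rule gives are printed.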

Additional observations from a re-analysis of the deposited data

Results flagged for a closer look

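The response to TNFα, the level with TNFα minus the level without it, differed between wild type and the libraries labelled Tnfrsf1α-/- in 4127 genes by limma, and between wild type and those labelled Tnfrsf1β-/- in 7654. The untreated knockout libraries behind these responses lay apart in total FPKM, at 469055 and 472936 for Tnfrsf1α-/- and 453242 and 447554 for Tnfrsf1β-/-. With TNFα the total was 1311291 and 1461415 for Tnfrsf1α-/- and 1076956 and 1176118 for Tnfrsf1β-/-. The part of this gap in the counts was not tested. For Akr1b10 the response was 6.20 log2 units larger in wild type than under the label Tnfrsf1α-/- (SE 0.31, limma adjusted p = 8.27e-07) and 11.41 larger than under the label Tnfrsf1β-/- (SE 0.31, limma adjusted p = 2.81e-08). For Apoe the gaps were 9.63 (SE 0.38) and 10.13, and for Fn1 2.40 (SE 0.34) and 6.15 (SE 0.34). The response of Nfkb2 was larger by 2.16 (SE 0.43, limma adjusted p = 0.006) than under the label Tnfrsf1α-/- and by 3.83 than under Tnfrsf1β-/-. B2m and Hnrnpk passed against the label Tnfrsf1β-/-, with gaps of 5.58 and 4.15. Cxcl1 and Vim went the other way: the response in wild type minus that under the labels Tnfrsf1α-/- and Tnfrsf1β-/- was -5.52 and -5.90 for Cxcl1 and -10.30 and -9.00 for Vim. With 2 libraries a group no test for a single distant sample was made.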

How the results depend on the processing

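Of 80 genes printed with a difference 74 passed limma, and 68 of these kept their direction and their call in each of 25 alternatives that tested them. With 1 library left out the count of calls ran from 3520 to 7646 for TNFα in wild type, from 2392 to 7125 for the difference from the label Tnfrsf1α-/- and from 6216 to 9287 for that from Tnfrsf1β-/-. With genes averaging an FPKM of 1 or more in both WT+TNFα and WT the second count was 2656, with fewer genes tested. Tnfrsf1a turned to -0.14 under median-ratio scaling and -0.20 under quantile normalization, Hspa5 to -0.43 and -0.50, and Cyr61 to 0.93 with a pseudocount of 0.1. With 1 library left out Cyr61 ran from -4.52 to 3.33 and Yap1 from -0.31 to 2.17, both decided by the WT replicates. The cause was not tested. Replicate numbers were only shared: the replicate 1 minus 2 differences of WT+TNFα and WT correlated at 0.149 over genes, and with the replicate block the counts were 5896, 4570 and 7902 and no printed gene changed its call. Counting 1 line per symbol, added after the data were seen, gave 5549. Depth is unknown, so low levels and listed zeros carry no counting error.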
